A study of Mus musculus with 46 samples.

Results

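The E2F transcription factor family was followed here through 8 genes, 7 that encode E2F proteins (E2f1, E2f2, E2f3, E2f4, E2f5, E2f7 and E2f8) and Tfdp2, which encodes a DP partner protein. They were taken by symbol out of 14888 genes listed in the tables of cultured mouse thyroid tumour cells, and all 8 were listed in both tables. Another E2F gene, E2f6, and another DP gene, Tfdp1, were also listed and are described beside the members.

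RNA-seq was analysed for 14 libraries in 4 groups. RP lines (n = 4) are Rb/p53 mutant, and RPM lines (n = 4) are Rb/p53/Max mutant. Empty vector libraries (n = 3) come from Rb/p53/Max mutant cells transduced with a control vector, and Max addback libraries (n = 3) from such cells transduced with a Max expressing vector. The library names of these 6 libraries carry the identifier of 1 line, that of RPM replicate 2, but Y-linked transcripts, given below, leave in doubt that the addback cells are of that line. Every group therefore lacks intact Rb and p53, and none of the comparisons has cells with a working Rb gene. The mutations were conditional and were induced in neuroendocrine cells by a tamoxifen-inducible Ascl-Cre. The sources used here give no ages or passages and do not say whether the 6 transduced libraries were separate cultures, so the p-values of the addback experiment measure only the spread between these libraries, which may be technical. The series' other 32 libraries, from tumours, are not analysed here.

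E2F proteins bind DNA as partners of DP proteins, E2F7 and E2F8 excepted, and switch genes of DNA replication on and off as cells pass from G1 into S phase. E2F1, E2F2 and E2F3 are the activators, which the retinoblastoma protein RB holds in check. E2F4 and E2F5 mostly act as repressors together with the RB relatives p107 and p130, and E2F7 and E2F8 are atypical repressors that need neither a DP partner nor a pocket protein. MAX is the partner that lets MYC bind the E-box CACGTG, and it also serves the repressors MNT, MGA and the MXD proteins. E2F6, which does not bind pocket proteins, is found with MAX and MGA in a Polycomb complex.

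The promoter windows of the members were read first, since E2F genes can be targets of E2F proteins and E-boxes are the sites of MAX dimers. RefSeq promoter windows (GRCm38.p6, 250 bases before to 50 after a start, 300 bases in all) were matched by symbol for 6 of 8 members, with 9 windows between them; E2f4 and E2f5 had no entry. An E2F site, searched on both strands in the 4 forms TTTCCCGC, TTTCGCGC, TTTGCCGC and TTTGGCGC, was found in windows of 3 members, against 2.265% of all 32851 windows and 3.839% of 14091 windows of genes listed in the tables. The E-box CACGTG was found for 1 member, against 7.15% and 9.815%. These shares are per window, whereas a member can have more than 1 window. The lines that follow show the stretches that hold these matches, each 5′ to 3′ on the strand of the gene, with the E2F site or the E-box in capitals; GCGGGAAA is TTTCCCGC read on the other strand.
E2f3, first start, chr13:29986064-29986123, minus strand: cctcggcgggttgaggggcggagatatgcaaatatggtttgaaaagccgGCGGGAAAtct
E2f3, second start, chr13:29984392-29984451, minus strand: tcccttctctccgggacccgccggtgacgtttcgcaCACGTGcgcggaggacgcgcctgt
E2f7, chr10:110745215-110745274, plus strand: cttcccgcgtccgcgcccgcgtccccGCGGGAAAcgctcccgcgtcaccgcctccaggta
E2f2, first start, chr4:136172294-136172323, plus strand: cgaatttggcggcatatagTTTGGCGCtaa

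In E2f3 the E2F site began at position -11 from the first start and the E-box at position -24 from the second start. In E2f7 the E2F site began at position -198, and in E2f2 it began at position 40, after the start. The stretch at the second start of E2f3 lies in an intron by the GENCODE annotation, and the other stretches overlap no annotated gene there. The CHR element, TTTGAA or TTCGAA, which cell cycle genes of G2 and M phase carry, began at position -23 in the first window of E2f3, just before the E2F site. It began at position -20 in E2f8 and at position -31 in the second window of E2f2. The start of that E2f2 window lies 8388 bases inside the GENCODE gene. The CHR element is held by 19.23% of all windows and 13.51% of windows of genes listed in the tables. The windows of E2f1 and Tfdp2 held none of these letters, but the window of E2f1 starts from a base 466 bases inside the GENCODE gene and those of Tfdp2 from bases 62430 and 62973 bases inside it, so these windows do not cover the annotated starts. A match is a description of letters, not a bound site.

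The libraries held 6738614 to 8498396 reads in genes, and 3 reads correspond to 0.353 to 0.458 CPM, the authors' library-scaled read level after TMM normalisation; this floor covers counting error only. The members held 142 to 1902 reads per library. Several libraries stood apart. RPM replicate 1 bears an animal identifier found too on tumours whose label is Rb/p53 mutant, so changes of members that move by over 1.5 times without it are given without it too. RP replicate 4 held Xist together with Y-linked transcripts, and Max addback replicate 3 differed from addback replicates 1 and 2 by more than these differed from each other (a chi-square per degree of freedom of up to 15.5, against 1.83). Ddx3y, a Y-linked gene, was at 125 CPM in untransduced RPM replicate 2 and at 157 to 177 CPM in the empty vector libraries, but at 0 CPM in all 3 addback libraries; Eif2s3y, also Y-linked, was at 59.6, 118 to 120 and 0 CPM. Whether the addback cells are of the same line is therefore in doubt, and in every addback result below an effect of the Max vector and another difference between the cells cannot be told apart. Max itself rose from 88.5 ± 6.73 CPM with the empty vector to 240 ± 17.3 CPM with addback (SD, n = 3); reads over the whole gene do not show a deleted exon, and the means of Max were 54.6 CPM over the RP and 88.2 CPM over the RPM lines.

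Markers of the cell type were checked beside this. All 8 listed C cell and neuroendocrine genes were read, and summed to 4021 to 16169 CPM in the lines, whereas the follicular list held at most 8.88 CPM, the endothelial list 3.57 CPM and the immune list 4.33 CPM in any library. Fibroblast genes summed to 3.32 to 144 CPM in the lines, with Col1a2, Col3a1, Lum and Pdgfra not listed. With addback, 7 of the 8 neuroendocrine genes rose and both listed fibroblast genes, Col1a1 and Dcn, fell. By the limma test described below, 27.7% of all genes rose and 25.5% fell. The fibroblast sum stood at 28.9 to 39.2 CPM with the empty vector and 5.34 to 7.10 CPM with addback. The part of these cell type genes in the E2F results was not tested.

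Levels of different genes were compared per length, as deposited RPKM. E2f1 had the highest RPKM of the 8 members in 12 of 14 libraries, and E2f2 led in RP replicates 1 and 2. In RP lines E2f1 and E2f2 stood together at 36.3 ± 8.36 and 35.6 ± 7.60 RPKM (SD, n = 4), with overlapping ranges. E2f8, E2f4, E2f5 and E2f3 followed at 20.4, 19.3, 16.2 and 11.9 RPKM, and E2f7 and Tfdp2 were lowest at 8.77 and 6.64 RPKM. Only the step from E2f2 to E2f8 separated neighbours without overlap of their ranges.

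In RPM lines E2f1 stood alone at 52.3 ± 5.84 RPKM (SD, n = 4) above E2f2 at 29.9 ± 12.5 RPKM. The ranges of all later neighbours overlapped: E2f4, E2f8, E2f3, E2f5, Tfdp2 and E2f7 averaged 23.6, 23.5, 14.9, 12.5, 11.1 and 8.04 RPKM. E2f8 was second in RPM replicate 3 and E2f4 in RPM replicate 4. In the addback experiment E2f1 and E2f2 were first and second in every library, at 70.7 and 49.1 RPKM with the empty vector and 47.3 and 37.6 RPKM with addback. E2f7 and Tfdp2 were again lowest, at 8.96 and 10.3 RPKM with the empty vector and 8.10 and 8.24 RPKM with addback. E2f3 was the lowest of the activators throughout, and E2f8 exceeded E2f7 in every library, by a ratio of RPKM of 1.53 to 4.25.

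Summed by role, the activators E2f1, E2f2 and E2f3 exceeded the repressors E2f4, E2f5, E2f7 and E2f8 in each of the 14 libraries. The ratio of summed RPKM was 1.37, 1.25, 1.17 and 1.38 in RP replicates 1 to 4 and 1.68, 1.52, 1.17 and 1.39 in RPM replicates 1 to 4. With the empty vector it was 1.87, 1.81 and 2.02, and with addback 1.52, 1.60 and 1.70. The RP and RPM ratios overlapped, and each empty vector library lay above each addback library. The summed RPKM of the activators averaged 83.8 ± 15.5 for RP lines and 97.1 ± 14.3 for RPM lines (SD, n = 4). It was 134 ± 4.55 with the empty vector and 105 ± 2.03 with addback (SD, n = 3). The summed RPKM of E2f7 and E2f8 was 30.6 in both groups of the addback experiment. These sums are given as a description, without a test. E2f6, which is not a member, is left out of the sums and ratios. Its mean was 183 CPM with the empty vector and 91.3 CPM with addback, and its part in the ratio was not tested.

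**Figure D1:**
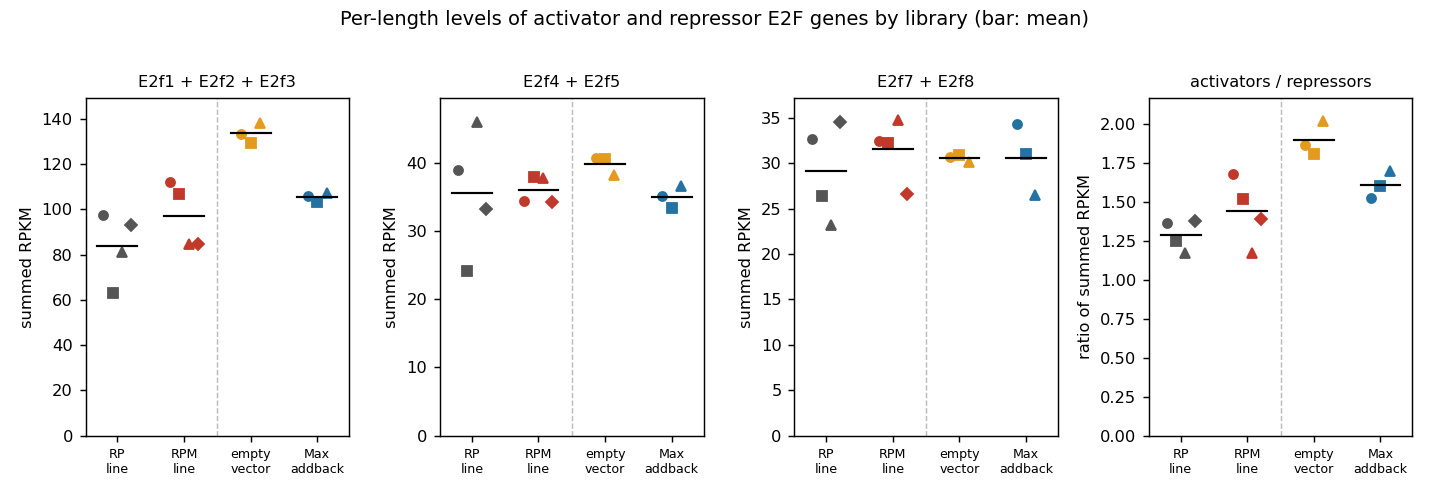
Summed RPKM of the activators (E2f1, E2f2, E2f3), of E2f4 and E2f5 and of E2f7 and E2f8, and the ratio of activators to all 4 repressors, by library; points are libraries, bars are group means, and the dashed line separates the tables, which were normalised separately. The ratio is 1.81 to 2.02 in the empty vector libraries and 1.52 to 1.70 in the addback libraries, while RP and RPM lines overlap. E2f6 is not counted in the sums or the ratio.

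The first comparison asks whether RPM lines differ from RP lines in the E2F family. None of the 8 members passed the test, limma on log2(CPM + 1) with Benjamini-Hochberg adjusted p under 0.05 over all genes of the table, which called 0.334% of the 14360 genes tested, 0.209% higher and 0.125% lower; 2284 genes had an unadjusted p under 0.05, among them E2f1 and Tfdp2. The members' median log2 change was 0.25, beside -0.01 over all genes. On the reads recovered from the CPM steps, edgeR's quasi-likelihood test called no member either and DESeq2 called 1, Tfdp2. Over all genes DESeq2 called many more than limma did, by the counts in the last section. The authors' deposited table calls no member here, and 4.19% of all genes, 1.72% higher and 2.47% lower.

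Tfdp2 (ENSMUSG00000032411.15; mm10, chromosome 9, 96196275 to 96323646, plus strand) encodes DP2, which binds DNA as the partner of an E2F. Its RP replicates 1 to 4 gave 112, 104, 67.9 and 88.2 CPM. Its RPM replicates 1 to 4 gave 127, 151, 163 and 183 CPM. Every RPM line lay above every RP line, which held for no other member; the groups did not overlap at 9.37% of all genes, 4.97% with RPM higher and 4.39% with RPM lower. The group means were 93.2 ± 19.6 and 156 ± 23.3 CPM (SD, n = 4), and the log2 change was 0.75 (SE 0.18, 95% interval 0.33 to 1.16). The limma adjusted p was 0.147. An exact permutation test, two-sided, gave 0.0286, its lowest possible p with 4 libraries a side. DESeq2, which called many more of all genes than limma, gave an adjusted p of 0.0146. Over all alternatives the adjusted p was 0.0146 to 0.355, and without RPM replicate 1 it was 0.0705 with a log2 change of 0.84.

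E2f1 (ENSMUSG00000027490.17; chromosome 2, 154559407 to 154569892, minus strand), the activator whose excess can also trigger cell death, gave 116, 79.1, 120 and 143 CPM in its RP lines, replicates 1 to 4. The RPM lines, in the same order, gave 174, 137, 172 and 177 CPM. The groups overlapped through RP replicate 4 and RPM replicate 2. The means were 114 ± 26.4 and 165 ± 18.4 CPM (SD, n = 4), with a log2 difference of 0.55 (SE 0.18; limma adjusted p = 0.236; exact two-sided permutation p = 0.0571).

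E2f2 (ENSMUSG00000018983.9; chromosome 4, 136172394 to 136196057, plus strand) split the RPM lines. RPM replicates 1 to 4 held 187, 209, 107 and 82.4 CPM, against 229, 149, 156 and 161 CPM for the RP replicates, so that 2 RPM lines lay within the RP range and 2 below it. The log2 change was -0.33 (SE 0.30, limma adjusted p = 0.62), and it ran from -0.53 without RPM replicate 2 to -0.087 without RPM replicate 4. E2f3 (ENSMUSG00000016477.18; chromosome 13, 29906575 to 29986063, minus strand), the activator that many cells need to proliferate, showed the same division, at 101 and 110 CPM in RPM replicates 1 and 2 and 46.9 and 65.4 CPM in RPM replicates 3 and 4. In RP lines E2f3 was at 75.4, 40.6, 60.3 and 81.5 CPM, and its log2 change was 0.29 (SE 0.31, limma adjusted p = 0.673). This ran from 0.089 without RP replicate 2 to 0.52 without RPM replicate 3 and was 0.16 without RPM replicate 1. RPM replicates 1 and 2 thus had the highest E2f3 of all 8 lines.

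The repressors varied about as much within as between the groups. E2f4 (chromosome 8, 105297663 to 105305370, plus strand), the most abundant E2F of many resting cells, gave 52.5, 35.6, 46.3 and 55.1 CPM across RP lines and 54.6, 64.4, 63.0 and 49.4 CPM across RPM lines (log2 change 0.29, SE 0.17, limma adjusted p = 0.422). E2f5 (chromosome 3, 14578641 to 14606309, plus strand) gave 31.2, 17.1, 48.3 and 19.2 CPM across RP lines and 21.4, 20.7, 21.5 and 25.1 CPM across RPM lines. Its RP lines spanned the whole range of the RPM lines, and its log2 change of -0.25 (SE 0.31, limma adjusted p = 0.72) became 0.026 without RP replicate 3. E2f7 (chromosome 10, 110745439 to 110787384, plus strand) gave 116, 78.3, 52.2 and 69.6 CPM across RP lines and 103, 55.8, 59.8 and 71.2 CPM across RPM lines, with the highest value of either group in its replicate 1. E2f8 (chromosome 7, 48866429 to 48881596, minus strand) gave 108, 96.1, 94.9 and 146 CPM across RP lines and 115, 142, 153 and 102 CPM across RPM lines. The log2 changes of E2f7 and E2f8 were -0.11 and 0.20 (limma adjusted p = 0.874 and 0.611), and that of E2f7 became 0.10 without RP replicate 1 and -0.29 without RPM replicate 1. The 95% intervals of the members that missed the threshold reach from -1.02 at E2f2 to 1.16 at Tfdp2, so changes of about that size were not excluded by this spread between lines.

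**Figure D2:**
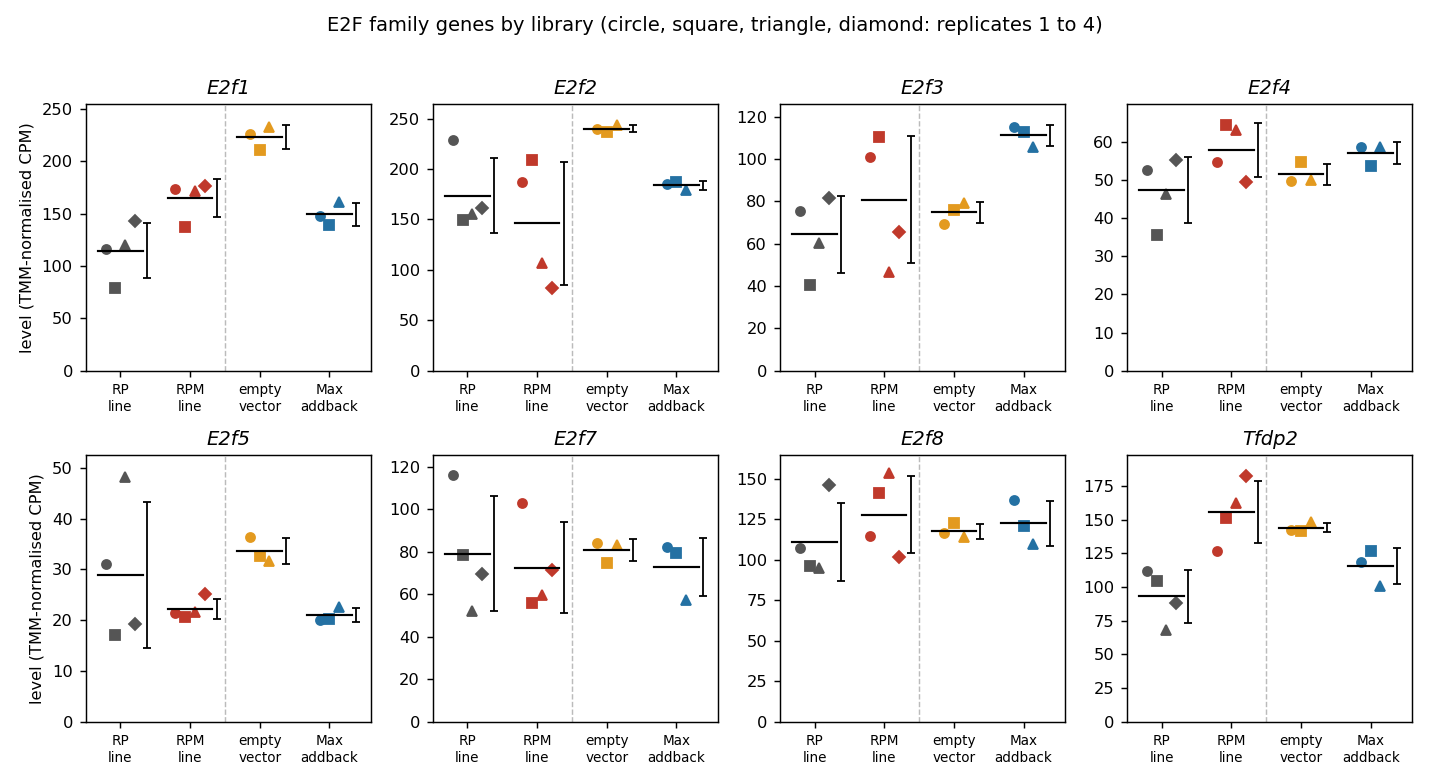
Level of each member in TMM-normalised CPM, by library, in RP lines (grey), RPM lines (red), empty vector (yellow) and Max addback (blue) libraries; the horizontal bar is the mean, the vertical bar the SD, and the dashed line separates the tables, which were normalised separately. Tfdp2 is the member whose RP and RPM lines do not overlap, and E2f2 and E2f3 each split the RPM lines into a higher and a lower pair.

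Across the 8 lines, E2f4 and E2f8 were the steadiest members, with a coefficient of variation of CPM of 17.5% and 19.9%, and E2f5 the most variable with 39.6%. The median over 10438 genes with a mean of at least 10 CPM was 23.0%. E2f4 and E2f8 followed each other most closely among the 28 pairs of members (Pearson r = 0.81, Spearman rho = 0.90, n = 8 lines), then E2f1 and E2f4 (r = 0.74, rho = 0.38). E2f5 and E2f8 went most against each other (r = -0.47). The genes of these pairs were read in the same libraries, and the values describe 8 lines only.

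By the same measure over 10437 genes, the genes most like each member were Isyna1, Tmem192 and Bid for E2f1 (r = 0.99, 0.99 and 0.98), and Hnrnph1, Abcc10 and Prkar2a for E2f2 (r = 0.97 each). For E2f3 they were Ywhaq, Bzw1 and Mcm5 (r = 0.96, 0.96 and 0.95), for E2f4 Polr2c, Zfp330 and Vps35 (r = 0.99, 0.98 and 0.98), and for E2f5 Apbb1, Slc25a53 and Drap1 (r = 0.94, 0.90 and 0.88). Spearman rho was at least 0.90 for the genes named for the other members, but 0.62, 0.40 and 0.88 for those of E2f5, whose highest line was RP replicate 3 at 48.3 CPM. For E2f7 they were Rraga, Arhgap1 and Pomgnt1 (r = 0.99, 0.96 and 0.95), for E2f8 Bax, Rab5if and Mcm8 (r = 0.98, 0.95 and 0.94), and for Tfdp2 Pnpla7, Riok3 and Nifk (r = 0.99, 0.97 and 0.97). In the 6 libraries of the addback experiment 13 of these 24 genes had a Pearson r below 0 with their member, among them all 3 each of E2f3, E2f5 and E2f8. Mcm5, a helicase subunit, ran opposite to E2f3 there (r = -0.99), while Bid followed E2f1 (r = 0.98). These r were taken over both groups of that experiment together. They cannot tell a change between the groups from variation within them.

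The second comparison sets libraries labelled as RPM cells given Max beside libraries labelled as the same cells given an empty vector, although the Y-linked reads put it in doubt that the cells are of 1 line. Max addback was followed by a fall of 4 members, E2f1, E2f2, E2f5 and Tfdp2, and by a rise of 1, E2f3. E2f4, E2f7 and E2f8 did not pass the test. By limma 53.2% of all 14056 genes passed in this comparison, 27.7% higher and 25.5% lower, so that 5 of 8 members is a share near the background. The members' median log2 change was -0.24, beside -0.00 over all genes.

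Among the activators, E2f1 stood at 226, 211 and 233 CPM in the empty vector libraries and at 147, 139 and 161 CPM in the addback libraries. Every addback library lay below every empty vector library; 61.9% of all genes had such a separation, 30.2% in this direction. The mean fell from 223 ± 11.3 to 149 ± 10.9 CPM (SD, n = 3), and limma gave a log2 change of -0.58 (SE 0.08; adjusted p = 0.000212). E2f2 stood at 239, 237 and 243 CPM with the empty vector and 185, 187 and 179 CPM with addback, again without overlap (log2 change -0.38, SE 0.07, limma adjusted p = 0.000947).

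E2f3 went the other way. It stood at 69.2, 75.7 and 79.4 CPM with the empty vector and 115, 113 and 106 CPM with addback, and all addback libraries were higher, as at 31.7% of all genes. The log2 change was 0.57 (SE 0.08, limma adjusted p = 0.000236). The ratio of E2f2 to E2f3 RPKM was 3.85, 3.47 and 3.41 with the empty vector and 1.79, 1.85 and 1.88 with addback. An antisense gene, Gm11365, lies inside E2f3 on the other strand; the sources used here do not state whether counting used the strand, so its reads cannot be told apart from those of E2f3.

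Of the repressors, E2f5 (ENSMUSG00000027552.14) fell from 36.4, 32.7 and 31.8 CPM to 20.1, 20.3 and 22.6 CPM. In the addback libraries it had the fewest reads of any member, at 158 to 176 reads per library. The log2 change was -0.65 (SE 0.10, limma adjusted p = 0.000436), the largest of the 8. At its 3′ end E2f5 overlaps 1810022K09Rik on the other strand. E2f4 (ENSMUSG00000014859.9) stood at 49.6, 54.6 and 50.1 CPM with the empty vector and 58.5, 53.7 and 58.7 CPM with addback, overlapping groups with a log2 change of 0.15 (95% interval -0.04 to 0.33, limma adjusted p = 0.167).

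The atypical repressors also overlapped between the groups. E2f7 (ENSMUSG00000020185.16) stood at 84.0, 74.9 and 83.4 CPM with the empty vector and 82.2, 79.5 and 57.2 CPM with addback; the log2 change of -0.16 (limma adjusted p = 0.326) became 0.0034 without addback replicate 3, which held the low value. E2f8 (ENSMUSG00000046179.17) stood at 116, 123 and 114 CPM and at 137, 121 and 110 CPM, a log2 change of 0.05 (95% interval -0.15 to 0.26, limma adjusted p = 0.648). Both genes overlap a gene on the other strand, 1700020G17Rik and Gm2788. Tfdp2 fell from 142, 142 and 148 CPM to 118, 127 and 101 CPM, by limma a log2 change of -0.32 (adjusted p = 0.0136), and missed the threshold without empty vector replicate 3 (-0.30, adjusted p = 0.0604).

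For each of the 5 members that passed, an exact permutation test, two-sided, gave 0.1, its lowest possible p with 3 libraries a side. The calls of E2f1, E2f2, E2f3 and E2f5 held in all 13 alternatives. In the authors' deposited table E2f5 is the 1 member called, with a log2 fold change of -0.68; the same table gives E2f1 -0.58 with an FDR of 4.5e-06 and no call, and the smallest absolute log2 fold change it calls is 0.585. It calls 32% of all genes, 18.9% higher and 13.1% lower.

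**Figure D3:**
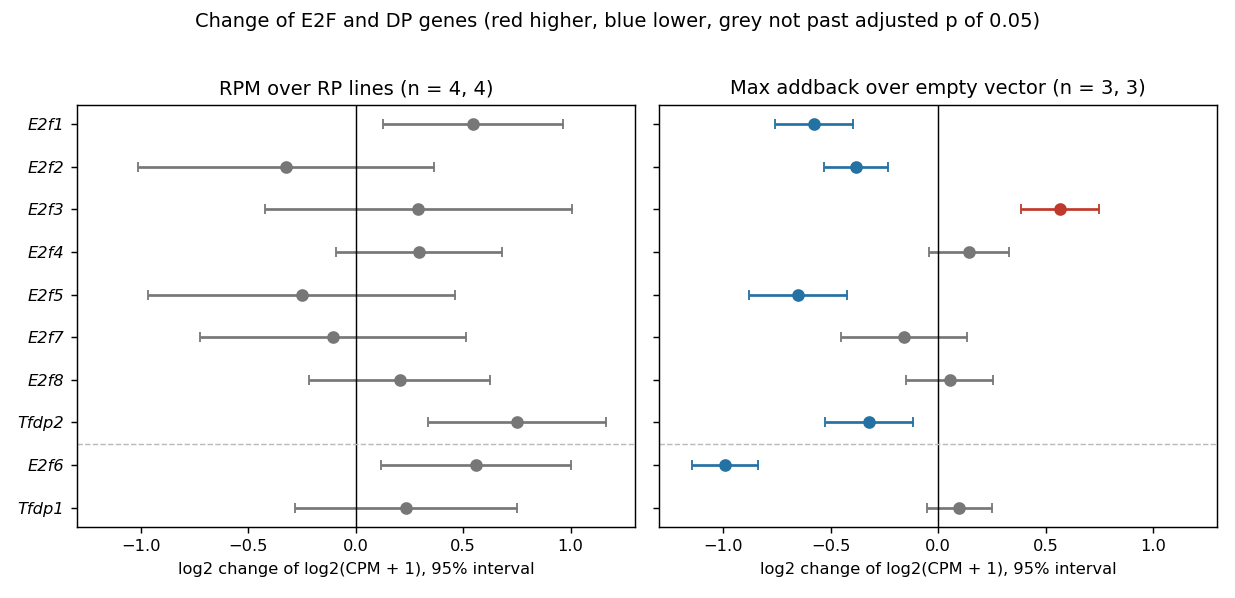
Change of the members and, under the dashed line, of E2f6 and Tfdp1, as the difference of log2(CPM + 1) with its 95% interval, RPM over RP lines on the left and Max addback over empty vector on the right; red and blue mark genes past the limma threshold. Intervals are wider between lines, where no gene shown passes, and E2f3 is the 1 gene shown that rose with addback.

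E2f6 and Tfdp1 are read against these members. E2f6 (chromosome 12, 16810963 to 16839742, plus strand), the E2F of the MAX and MGA complex, had an RP mean of 59.4 ± 7.44 and an RPM mean of 90.0 ± 26.0 CPM (SD, n = 4). No RPM line overlapped the RP lines, a separation found with RPM higher at 4.97% of all genes. The log2 change of 0.56 missed the threshold (SE 0.19, limma adjusted p = 0.242). With addback E2f6 fell from 183 ± 5.78 to 91.3 ± 1.69 CPM (SD, n = 3), by limma a log2 change of -0.99 (SE 0.07; adjusted p = 1.59e-06), a larger fall than that of any member. Tfdp1, which encodes DP1, the main E2F partner, had RP and RPM means of 228 and 275 CPM (limma adjusted p = 0.637) and means of 216 CPM with the empty vector and 232 CPM with Max (adjusted p = 0.242).

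Whether the comparisons differ was tested on the genes of both tables, as the change of RPM over RP lines minus the change of empty vector over addback, so that 0 stands for the same size of change in both. The addback side is named for 1 line, so these p-values leave out how a change with addback varies between lines. By limma none of the 8 members passed, against 15.1% of 13528 genes, 9.23% higher and 5.91% lower (4080 had an unadjusted p under 0.05, among them E2f2, E2f3, E2f4 and E2f5). E2f1 differed by -0.03 (95% interval -0.46 to 0.39, adjusted p = 0.934). The differences of E2f2, E2f3 and E2f5 were -0.71, 0.86 and -0.91 (limma adjusted p = 0.0997, 0.0667 and 0.0621). Voom with quality weights on the recovered reads called 3 members, E2f2 and E2f5 lower (adjusted p = 0.00505 and 0.0429) and Tfdp2 higher (0.69, adjusted p = 0.00972). Over all genes voom also called more than limma did, by the counts in the last section, and 5430 genes had an unadjusted p under 0.05 by voom. Leaving out a library called 1 member in some fits: E2f5 without RP replicate 2, RP replicate 4 or addback replicate 3 (-1.11, -1.06 and -0.96), E2f2 without RPM replicate 1 or 2 (-0.86 and -0.91), and E2f3 without RPM replicate 3 (1.09).

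By its library name the untransduced line is RPM replicate 2, which gives 1 library to set beside the transduced ones, although the tables were normalised separately and no test was made. It shares its Y-linked reads with the empty vector libraries and not with the addback libraries. Its E2f1 level of 137 CPM lay nearer to addback (mean 149 CPM) than to the empty vector (mean 223 CPM). Its E2f3 level of 110 CPM likewise lay nearer to addback (111 CPM) than to the empty vector (74.8 CPM), and so did its E2f5 level of 20.7 CPM (21 against 33.6 CPM). Of 8 members 7 were nearer to addback, Tfdp2 excepted (151 CPM against 116 and 144 CPM), and the same 7 were nearer without TMM scaling. Over all 13528 shared genes 58.5% were nearer to addback, and 61.7% of the genes called with addback.

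**Figure D4:**
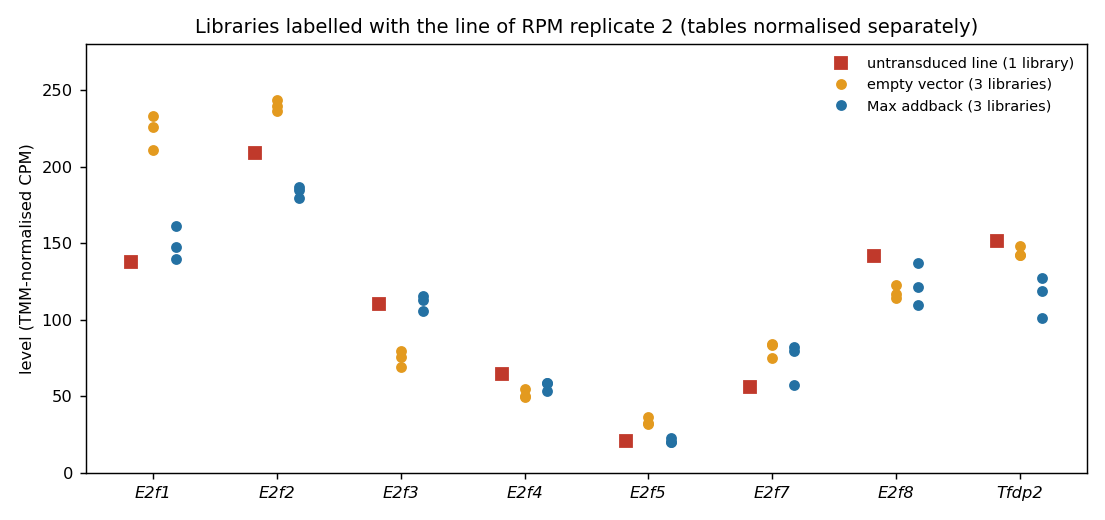
Levels in TMM-normalised CPM of the members in libraries labelled with 1 line, which is in doubt for the addback libraries, as they lack Y-linked reads: untransduced (red square, 1 library), with empty vector (yellow, 3 libraries) and with Max addback (blue, 3 libraries). The untransduced library comes from the separately normalised table of lines; its E2f1, E2f3 and E2f5 levels of 137, 110 and 20.7 CPM lie nearer to the addback than to the empty vector libraries.

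Among the pocket proteins that E2Fs bind, none of 3 passed in either comparison by limma, edgeR or DESeq2, although all 3 had an unadjusted limma p under 0.05 between the lines and 0 of 3 with addback. Rbl1, which encodes p107, and Rbl2, which encodes p130, were higher in every RPM line than in any RP line, with means of 70.8 and 97.8 CPM and of 37.2 and 57.7 CPM (limma adjusted p = 0.269 and 0.216). Such a separation with RPM higher was found at 4.97% of all genes. With addback the means were close, at 167 and 170 CPM for Rbl1 and 60.5 and 60.6 CPM for Rbl2. Rb1, mutant in all groups, was still read, with RP and RPM means of 240 and 169 CPM and means of 212 CPM (empty vector) and 211 CPM (addback); reads over the gene do not show its mutation.

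Of 7 genes of the MuvB core, B-MYB and FOXM1, which carry the E2F program into G2, none passed between RP and RPM lines by limma, edgeR or DESeq2 (1 with an unadjusted limma p under 0.05, Mybl2) and 4 fell with addback. By limma 25.5% of all genes fell with addback. Foxm1 fell from 282 to 173 CPM (log2 change -0.70, SE 0.08, limma adjusted p = 4.6e-05). Rbbp4, Lin9 and Mybl2 fell by 0.33, 0.30 and 0.29 on the log2 scale (adjusted p = 0.00882, 0.0096 and 0.0102). Mybl2, an E2F target, had RP and RPM means of 29.9 and 55.0 CPM (adjusted p = 0.277), and Lin37, Lin52 and Lin54 missed the threshold in both comparisons.

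Of 13 listed G1 cyclins, CDKs and CDK inhibitors, which act on E2F through RB phosphorylation, 1 passed between the lines. Cdkn1c, the gene of the CDK inhibitor p57, was lower in RPM lines, at 10.4 ± 6.14 against 78.4 ± 18.7 CPM (SD, n = 4; log2 change -2.96, SE 0.41, limma adjusted p = 0.0365), a call that held without RPM replicate 1 and was lost without any other single line. With addback 3 of 14 rose and 4 fell, beside 27.7% and 25.5% of all genes. On the log2 scale Cdkn2b and Cdkn1c rose by 0.80 each and Cdkn1b by 0.46. Ccnd2 fell by 1.21, Cdkn1a by 0.88, Ccne1 by 0.58 and Cdkn2a by 0.34. The limma adjusted p was 0.0226 for Cdkn2a and at most 0.00511 for the others. Ccnd2 and Cdkn2b were near the counting floor, at 1.87 and 0.21 CPM and at 1.02 and 2.49 CPM. Ccne1, which encodes cyclin E1, an E2F target, stood at 103 CPM with the empty vector and 68.9 CPM with addback. Cdkn1b, Ccne1 and Cdkn2a were named after their values were seen. Without addback replicate 3 the count of falls was 9.

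The 31 listed genes of the G1 to S transition, the classical targets of E2F, had no member past the threshold between the lines by limma, edgeR or DESeq2, with 16 above 0, a median log2 change of 0.07 and 3 at an unadjusted limma p under 0.05. The genes with the smallest p were Lig1, DNA ligase 1, at 290 and 182 CPM, and Chaf1b, a histone chaperone subunit, at 135 and 92.5 CPM in RP and RPM lines (adjusted p = 0.28 and 0.283). With addback 12 of 31 fell and 4 rose, beside 25.5% and 27.7% of all genes, and the median was -0.11. Rrm2, the ribonucleotide reductase subunit that limits dNTP supply, fell from 1117 ± 27.6 to 481 ± 17.1 CPM (SD, n = 3; log2 change -1.21, SE 0.08, limma adjusted p = 1.16e-06). Orc1, of the origin recognition complex, fell from 15.9 to 9.09 CPM, Ezh2, a Polycomb methyltransferase, from 304 to 186 CPM and Ccna2, which encodes cyclin A2, from 390 to 267 CPM (log2 changes -0.74, -0.70 and -0.55; adjusted p = 0.00134, 2.32e-05 and 0.000188). The 4 that rose, named after their values were seen, were Mcm4 (156 to 201 CPM), Slbp (101 to 129 CPM), Cdt1 (86.9 to 110 CPM) and Mcm2 (280 to 327 CPM), 3 of them genes of replication licensing. Mcm4 and Slbp passed with each of the 6 libraries left out in turn, Cdt1 missed the threshold without empty vector replicate 2 (adjusted p = 0.0631), and Mcm2 passed only without addback replicate 3 (adjusted p up to 0.0856), so that the count was 2 without empty vector replicate 2. Other licensing genes of the list, also named after their values were seen, fell as Orc1 did. Mcm3, Mcm5, Mcm6 and Cdc6 had log2 changes of -0.30, -0.33, -0.33 and -0.23 with addback (limma adjusted p = 0.00619, 0.00396, 0.00588 and 0.0432). Of the listed genes with a RefSeq promoter window, 12 of 25 held an E2F site as defined above. This is counted per gene, whereas the share of 3.839% for genes listed in the tables is per window.

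Among 22 genes of G2 and M phase, 19 lay above 0 in RPM over RP lines with a median log2 change of 0.47, but none passed by limma or edgeR and 1 by DESeq2 (7 had an unadjusted limma p under 0.05). Ccnb1, which encodes cyclin B1, had RP and RPM means of 51.9 and 120 CPM without overlap (log2 change 1.18, SE 0.27, adjusted p = 0.135), and Bub1, a spindle checkpoint kinase, 78.5 and 123 CPM (adjusted p = 0.237). The lines were separate with RPM higher, as for Ccnb1, at 4.97% of all genes. With addback 11 of 22 fell and 2 rose, beside 25.5% and 27.7% of all genes, with a median of -0.40. Cenpf, a kinetochore protein, fell from 770 to 366 CPM, Kif11, the spindle motor, from 673 to 359 CPM, Cdc20, an activator of the anaphase ubiquitin ligase, from 337 to 195 CPM and Birc5, survivin, from 176 to 115 CPM (log2 changes -1.10, -0.91, -0.79 and -0.61; adjusted p at most 0.000323). Aurka (149 to 182 CPM, adjusted p = 0.0188) and Ccnb2 (130 to 152 CPM, adjusted p = 0.04999) were the 2 that rose, named after their values were seen; without an empty vector library, whichever was left out, neither passed. The CHR element was found in the windows of 14 of 18 of these genes with a RefSeq entry. That count is per gene, whereas the share of 13.51% for genes listed in the tables is per window.

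**Figure D5:**
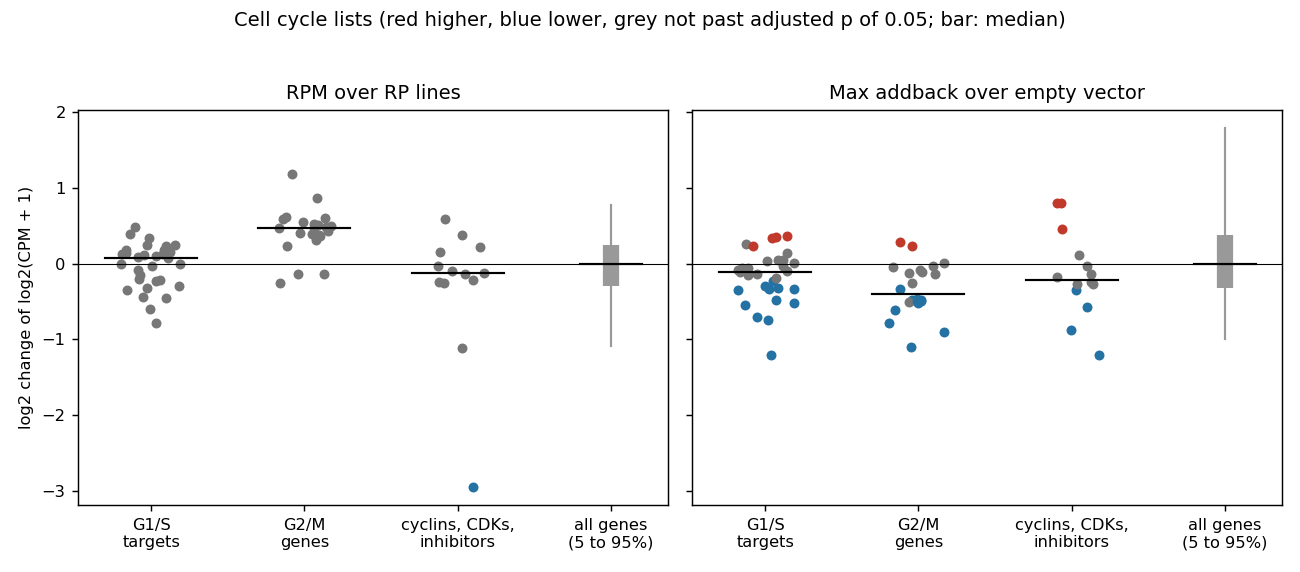
Change of the genes of 3 cell cycle lists as the difference of log2(CPM + 1), RPM over RP lines on the left and Max addback over empty vector on the right; each point is a gene, bars are list medians, and the grey box and line give the quartiles and the 5 to 95% range of all genes. G2/M genes have a median of 0.47 between the lines and -0.40 with addback, and G1/S targets 0.07 and -0.11.

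Of the genes of cell death named as E2F1 targets, 4 are described here. None of these 4 passed between the lines by limma or edgeR (1 with an unadjusted limma p under 0.05, Trp73), and DESeq2 called 1 lower. Trp73, which encodes p73, had RP and RPM means of 5.03 and 0.587 CPM without overlap, with 0 to 8 reads in the RPM libraries (limma adjusted p = 0.0546). The lines were separate with RPM lower, as for Trp73, at 4.39% of all genes. Bcl2l11, Bbc3 and Apaf1 overlapped between the lines. With addback Bbc3, which encodes PUMA, fell from 15.2 to 10.2 CPM (log2 change -0.56, limma adjusted p = 0.0127). Apaf1 and Bcl2l11 missed the threshold, and Trp73 was not listed in the addback experiment. Of 4 genes of the ubiquitin ligases that degrade E2F proteins none passed between the lines by limma, edgeR or DESeq2 (1 with an unadjusted limma p under 0.05, Cks1b). Ccnf, which encodes cyclin F, and Skp2 fell with addback, from 145 to 101 CPM and from 91.0 to 69.6 CPM (limma adjusted p = 0.000162 and 0.00484). Cks1b and Fzr1 missed the threshold. The falls of Bbc3, Ccnf and Skp2 stand beside 25.5% of all genes that fell with addback by limma.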

How the data were processed

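Processed values of 14 RNA-seq libraries were used. Per the submitters' processing notes the tools were bcl2fastq 1.8.4, TopHat2 2.1.0, HTSeq 0.6.1 and edgeR, and the build was mm10. Values deposited by the authors, per the file headers, are a CPM signal after TMM normalisation for each gene in each library, RPKM, log2 fold changes with mean log2 levels, p-values with FDR, and a call score (-1, 0 or 1). The sources used here do not state the filter that chose the listed genes. All CPM values were whole multiples of 1 read within 0.01 of a read (100% of values), which gave the reads per gene (6738614 to 8498396 per library). Groups came from the titles. Replicate libraries differed by more than sampling noise and none were merged.

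Each comparison was tested within its own table with limma 3.58.1 (trend) on log2(CPM + 1), without covariates and without a filter, two-sided, Benjamini-Hochberg over all listed genes, threshold 0.05; fold changes on this scale understate changes of low genes. The difference between the comparisons used limma with array weights per experiment. Alternatives were edgeR 4.0.16 (quasi-likelihood), DESeq2 1.42.0, voom with quality weights, DESeq2 scaling, pseudocounts of 0.5 and 2, a filter at 1 CPM, the replicate number as a block and each library left out. The scripts were tested on simulated data. Coordinates come from GENCODE vM21 (GRCm38, also named mm10). The members and lists were chosen with earlier results of these data known. The text names all members, every gene of lists of up to 7 (some genes of 1 list are not reported here), up to 4 called genes of longer lists with the largest change (or, with none, the 2 of smallest p), and the 3 genes most like each member by Pearson r.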

Additional observations from a re-analysis of the deposited data

Results flagged for a closer look

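Single libraries lay far from the other 3 of their group at 8 of 112 groups tested (the gap to the nearest library over the whole range was above Dixon's critical value, which chance gives at about 1 in 20 groups). Among the members, E2f1 was lowest in RPM replicate 2 at 137 CPM and E2f2 highest in RP replicate 1 at 229 CPM. E2f6 reached 129 CPM in 1 RPM line. In RP lines a single high library was found for Apaf1 at 60.8 CPM, Aurka at 130 CPM, Ccnb1 at 76.0 CPM, Foxm1 at 189 CPM and Rbbp4 at 734 CPM.

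Some genes of the cell cycle lists passed the limma test of the difference, (RPM over RP lines) minus (empty vector over addback). Of 22 G2/M genes 2 were higher and 1 lower, and of 31 G1/S targets 0 were higher and 1 lower. Of 13 G1 cyclins, CDKs and CDK inhibitors 2 were lower, and of 7 genes of MuvB, B-MYB and FOXM1 1 was lower. Over all shared genes 15.1% passed, 9.23% higher and 5.91% lower. Higher were Ccnb1 (1.04, adjusted p = 0.0194) and Aurka (0.75, adjusted p = 0.0493). Lower were Cdkn1c (-2.15, adjusted p = 0.00246), Cenpf (-1.24, adjusted p = 0.0335), Ezh2 (-1.06, adjusted p = 0.0275), Ccne1 (-0.84, adjusted p = 0.02) and Foxm1 (-0.62, adjusted p = 0.0499). No member was among them. With each of the 14 libraries left out in turn, Cdkn1c passed in all 14 fits (-2.43 to -1.84), Ccnb1 in 13 (lost without RP replicate 3, adjusted p = 0.0538), Ccne1 in 11 (lost on leaving out RPM replicate 3, RPM replicate 4 or the first RP line, adjusted p up to 0.0541), Ezh2 in 8 (adjusted p up to 0.0678), Cenpf in 6 (up to 0.0891), and Aurka and Foxm1 in 3 each (up to 0.125 and 0.129). That the addback and empty vector cells are of 1 line is in doubt, as the addback libraries hold no Ddx3y reads. The p-values of the difference leave out how a change with addback varies between lines.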

How the results depend on the processing

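Between the lines no member was called by limma under any alternative, and DESeq2 called 1 higher, Tfdp2. Over all genes edgeR called 1 higher and 2 lower, DESeq2 352 and 305 and the replicate block 0 and 0 (2463 genes with an unadjusted p under 0.05). Leaving out 1 line gave 0 to 77 higher and 0 to 184 lower, both highest without RPM replicate 1. With addback, 4 calls of members held in every alternative and that of Tfdp2 in all but 1, so that leaving out a library gave 3 to 4 members lower and 1 to 1 higher, and 3320 to 4575 genes higher and 2846 to 4460 lower. For the difference between the comparisons, voom with quality weights called 2155 genes higher and 1680 lower, with 1 member higher and 2 lower, and one spread for all groups 763 and 432. Leaving out a library gave 880 to 1416 higher and 530 to 1025 lower, and 0 to 1 members in either direction. Members that missed the threshold changed sign without some libraries: between the lines E2f7 (-0.29 to 0.10, above 0 without RP replicate 1 or RPM replicate 2) and E2f5 (-0.46 to 0.026, above 0 without RP replicate 3), with addback E2f8 (-0.030 to 0.13, below 0 without addback replicate 1) and E2f7 (-0.25 to 0.0034, above 0 without addback replicate 3), and in the difference E2f1 (-0.20 to 0.084, above 0 without RP replicate 4, RPM replicate 2 or addback replicate 2). The cause was not tested. Deviations of same-numbered libraries had an r of 0.01 to 0.44 in the lines and 0.03 to 0.10 in the addback experiment. Libraries of different numbers had an r of -0.33 to 0.22 in the lines and -0.09 to 0.04 in the addback experiment. These values do not settle whether the numbers mark pairs. The block changed no call of a member. No alternative moved the median of all genes by over 0.1 on the log2 scale.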
